A study of Mus musculus with 4 samples.

Results

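The protocadherin genes are the genes whose symbol in the array's platform annotation begins with Pcdh and that are read by a probe set carrying no other symbol. There were 35 of them among 22180 named genes. By their symbols, 23 are clustered protocadherins (22 Pcdhb genes and Pcdhga10) and 12 are non-clustered. The cells came from lines grown out of mammary tumours that arose in female mice of the FVB strain (the MMTV-NIC model, where the mammary tumour virus promoter drives activated ErbB2 together with Cre). They were harvested after 96 h with 2 µM GSK-126 (GSK126 below) or after 96 h with the vehicle DMSO. All of the cells carried the transgene and grew in medium with serum, EGF, hydrocortisone, insulin and pituitary extract. Levels are log2 values of single-channel Affymetrix arrays, where a difference of 1 is a 2-fold change. Each group held 2 arrays, and it is not stated whether these came from different lines or cultures, so p-values cover the differences between 4 arrays and may reflect technical spread alone.

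Protocadherins are the largest group of cadherins, calcium-dependent adhesion proteins that span the cell membrane. The clustered genes form the alpha, beta and gamma arrays, which lie side by side on 1 chromosome. In neurons each cell uses its own small choice of them, made through promoter methylation, the DNA-binding factor CTCF and cohesin, and the chosen proteins let a neuron recognise its own branches. The non-clustered genes are scattered over the genome and serve adhesion, migration and synapse formation. In human tumours protocadherin clusters and single genes such as PCDH10 are often silenced by promoter methylation. GSK126 inhibits EZH2, the enzyme that places the repressive mark H3K27me3, which is found mainly at CpG-rich promoters of silent developmental genes. Neither this mark nor DNA methylation was measured on these arrays.

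The promoters of 3 non-clustered genes are shown because they span what the array read in this family, from a signal far above background with a CpG-rich promoter (Pcdh18) to signals near background with a CpG-rich (Pcdh10) and a CpG-poor one (Pcdh20). The sequences are RefSeq's on build GRCm38.p6, read 5′ to 3′ on the gene's strand and ending before the annotated gene, with each CpG in capitals. Pcdh10 is shown at chr3:45378148-45378397 (plus strand), Pcdh18 at chr3:49757384-49757566 (minus strand) and Pcdh20 at chr14:88471397-88471646 (minus strand).
Pcdh18: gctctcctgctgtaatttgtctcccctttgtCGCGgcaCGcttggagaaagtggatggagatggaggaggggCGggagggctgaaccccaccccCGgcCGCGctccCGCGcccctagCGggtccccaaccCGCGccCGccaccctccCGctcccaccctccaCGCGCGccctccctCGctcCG
Pcdh10: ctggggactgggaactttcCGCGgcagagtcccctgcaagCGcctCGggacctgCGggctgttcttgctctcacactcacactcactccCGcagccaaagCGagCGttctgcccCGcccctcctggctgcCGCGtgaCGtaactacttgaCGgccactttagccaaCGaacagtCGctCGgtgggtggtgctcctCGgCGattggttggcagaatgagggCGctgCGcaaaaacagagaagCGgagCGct
Pcdh20: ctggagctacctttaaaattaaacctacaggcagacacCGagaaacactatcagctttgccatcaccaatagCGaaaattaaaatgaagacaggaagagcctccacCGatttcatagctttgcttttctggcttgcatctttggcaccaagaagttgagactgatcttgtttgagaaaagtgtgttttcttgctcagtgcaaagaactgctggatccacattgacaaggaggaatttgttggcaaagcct

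The stretches shown hold 19 CpG for Pcdh18 (183 bases), 22 for Pcdh10 and 3 for Pcdh20 (250 bases each). To compare windows of equal length, CpG were counted in the 250 bases before the transcript start that the promoter table uses. For Pcdh18 and Pcdh19 this window lies partly, and for Pcdh7, Pcdh9 and Pcdh15 wholly, inside the annotated gene, which begins at an earlier start. In these windows Pcdh18 held 23 CpG, Pcdh10 held 22 and Pcdh17 held 21, while Pcdh9 held 18, Pcdh19 16, Pcdh8 11, Pcdh7 7, Pcdh15 6 and Pcdh20 3. The letters searched were CG, which read the same on both strands and cannot overlap themselves. Over the 32851 promoter windows of the table the median was 6, and 92.1% of windows held at least 1. The table matched 9 of the 35 genes, all of them non-clustered. CpG-rich windows thus belonged both to Pcdh18, whose mean log2 level was 8.71, and to Pcdh10 and Pcdh17, at 4.03 and 4.24.

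No protocadherin gene passed the test for a difference between GSK126 and DMSO. In limma over all 22180 genes, 0 of the 35 reached an adjusted p under 0.05, against 0.433% of all genes, and 0 reached an unadjusted p under 0.05, against 10.6% of all genes. The smallest adjusted p in the family was 0.497, for Pcdh12. Changes are log2 differences, GSK126 minus DMSO, each with a standard error (SE), and ran from -0.35 for Pcdh12 to 0.42 for Pcdhb16. The 95% intervals of 34 genes lay within 2-fold in both directions, and that of Pcdhb16 reached 2.015-fold. For 15 genes the interval lay within 1.5-fold in both directions. These intervals bound the array signal. For the 22 genes near background, as defined below, they need not bound the change in RNA.

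Most of the family gave little signal on these arrays. A gene is called near background here when its mean over the 4 arrays is below 4.77, the 40th percentile of all genes, since the value table holds no detection calls. This held for 22 of the 35 genes, 16 of the 23 clustered and 6 of the 12 non-clustered ones. Small p-values were rarer among such genes. Of all 8872 genes near background, 2 had an adjusted and 448 an unadjusted p under 0.05 in limma. Of the 13308 other genes, 94 and 1898 did. As a second yardstick, 1105 olfactory receptor genes, which are not known for a role in mammary cells, had a median of 2.92 and a 95th percentile of 4.90, and 11 protocadherins lay above 4.90. Probe sets differ in how strongly they bind, so levels of different genes are signals over background and give no order of RNA amounts.

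**Figure D1:**
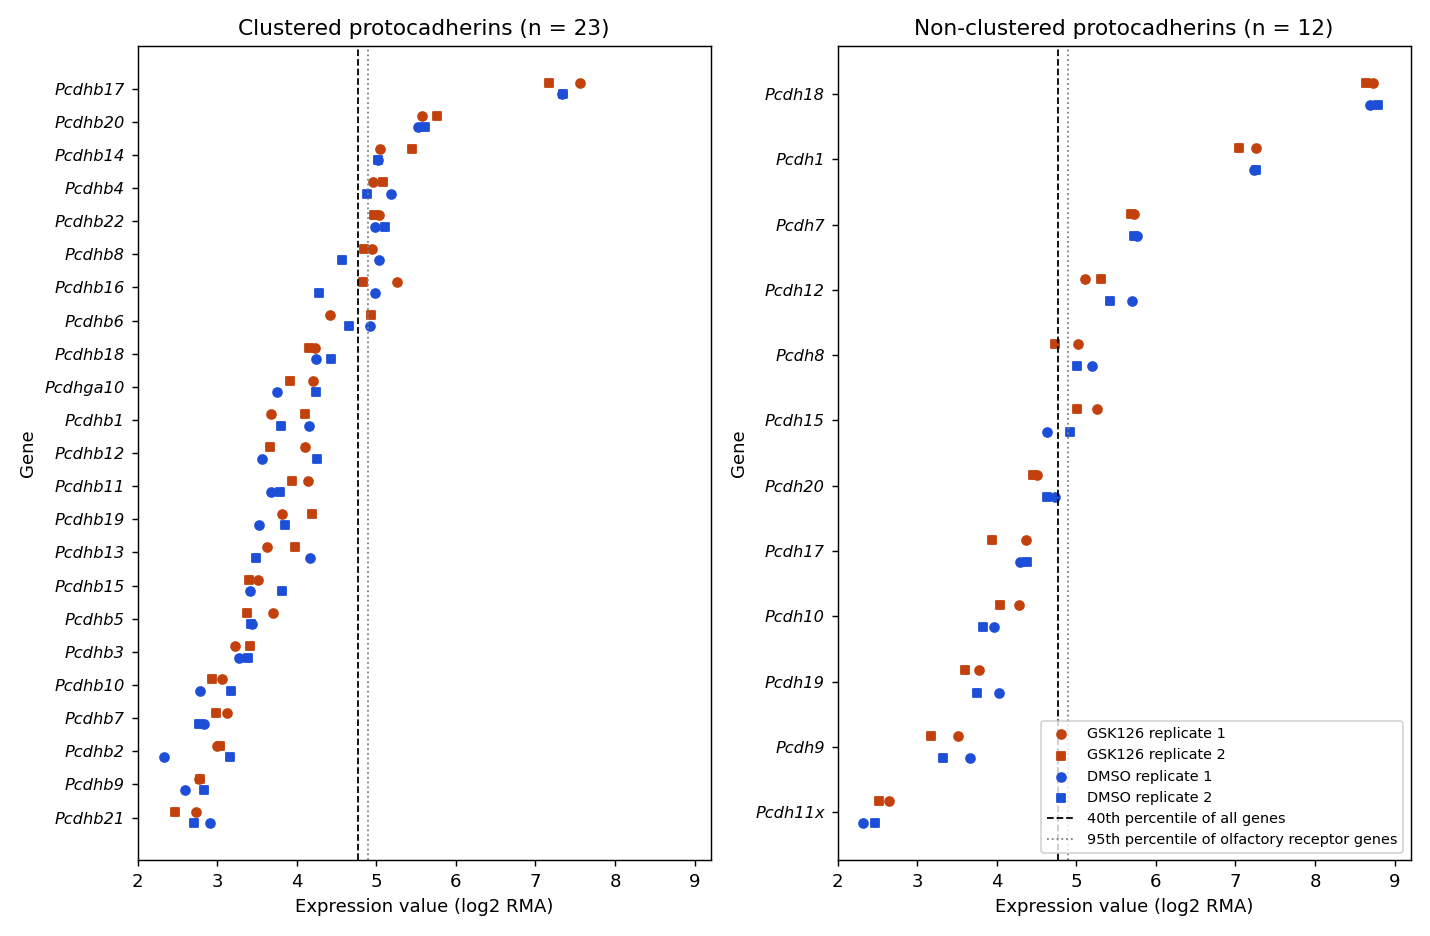
Log2 expression value (horizontal axis) of each protocadherin gene (vertical axis) on the 2 GSK126 arrays (orange) and the 2 DMSO arrays (blue), with circles for replicate 1 and squares for replicate 2. The dashed line at 4.77 is the 40th percentile of all genes and the dotted line at 4.90 the 95th percentile of olfactory receptor genes. The 4 values of most genes interleave, and Pcdh18, Pcdh1 and Pcdhb17 lie far to the right of both lines.

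Among the clustered genes, Pcdhb17 stood clear of background. It read 7.56 and 7.18 with GSK126, against 7.34 and 7.35 with DMSO. The GSK126 values lay on either side of both DMSO values, and the change was 0.03 (SE 0.14, adjusted p = 0.976, 95% interval -0.29 to 0.34). Centring each array on its median, or leaving out GSK126 replicate 1, turned the sign of this change. Centring shifted the change of every gene by the same amount, and the median over all genes went from -0.01 to -0.06. Pcdhb20 read 5.58 and 5.77 with GSK126, against 5.52 and 5.61 with DMSO, and the groups overlapped (0.11, SE 0.14, adjusted p = 0.848).

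Pcdhb14 read 5.05 and 5.45 with GSK126, against 5.02 on both DMSO arrays. Its groups did not overlap, but the gap of 0.40 between the GSK126 arrays exceeded the change of 0.23 (SE 0.17, adjusted p = 0.687). Without GSK126 replicate 1 the change was 0.43 (unadjusted p = 0.0330, adjusted p = 0.494 in limma), and without GSK126 replicate 2 it was 0.03 (unadjusted p = 0.841). In such fits the lone array of a group is assumed to vary like the other group. Pcdhb4 (change -0.01) and Pcdhb22 (-0.04) averaged 5.03 each over the 4 arrays, a little above the limit. Their groups overlapped, and the sign turned without GSK126 replicate 1 or DMSO replicate 1 for Pcdhb4 and without DMSO replicate 2 for Pcdhb22.

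Pcdhb16 showed the largest positive change of the family, 0.42 (SE 0.26, adjusted p = 0.620). It read 5.27 and 4.83 with GSK126, against 4.98 and 4.28 with DMSO. The groups overlapped, and the DMSO arrays alone were 0.70 apart. The change was 0.77 without DMSO replicate 1 (unadjusted p = 0.0270, adjusted p = 0.575 in limma) but 0.07 without DMSO replicate 2 (unadjusted p = 0.799) and 0.20 without GSK126 replicate 1 (unadjusted p = 0.535). In the fit with a replicate block the unadjusted p was 0.0374 and the adjusted p 0.506. Each clustered gene encodes an adhesion receptor whose outer part is its own, and for none of these genes is a particular role in mammary cells stated here.

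The other named clustered genes lay near background. Pcdhb11 read 4.15 and 3.94 with GSK126, against 3.67 and 3.79 with DMSO (change 0.31, SE 0.17, adjusted p = 0.576). Pcdhb19 read 3.81 and 4.19 with GSK126, against 3.53 and 3.85 with DMSO (0.31, SE 0.20, adjusted p = 0.647). Pcdhb2 read 3.0006 and 3.04 with GSK126, against 2.33 and 3.16 with DMSO (0.27, SE 0.27, adjusted p = 0.792). The GSK126 values of Pcdhb11 lay above both DMSO values, whereas those of Pcdhb19 and Pcdhb2 overlapped them. The low reading of Pcdhb2 on DMSO replicate 1 set its change, which became 0.69 without DMSO replicate 2 (unadjusted p = 0.0214, adjusted p = 0.436 in limma) and turned sign without DMSO replicate 1.

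On the negative side, Pcdhb21 read 2.73 and 2.47 with GSK126, against 2.91 and 2.71 with DMSO (change -0.20, SE 0.19, adjusted p = 0.767). The other low changes were -0.16 for Pcdhb15, -0.14 for Pcdhb18 and -0.11 for Pcdhb6. The sign turned without DMSO replicate 2 for Pcdhb15, and without GSK126 replicate 1 or DMSO replicate 1 for Pcdhb6. Of these 4 genes, Pcdhb18 alone had groups that did not overlap, by a very narrow margin. It read 4.234 and 4.15 with GSK126, against 4.2354 and 4.43 with DMSO. Pcdhga10 read 4.20 and 3.92 with GSK126, against 3.75 and 4.24 with DMSO, and its change of 0.06 was smaller than the gap within either group. The 9 remaining clustered genes had changes between -0.09 (Pcdhb1) and 0.25 (Pcdhb7).

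The 22 Pcdhb genes follow each other along the chromosome in the order of their numbers in the RefSeq annotation (GRCm38.p6). Similar changes of neighbours occurred, as at Pcdhb12 and Pcdhb13 (both -0.03), and so did dissimilar ones, and no test of neighbours was made. In the stretch around Pcdhb17, the changes were 0.42 for Pcdhb16, 0.03 for Pcdhb17, -0.14 for Pcdhb18 and 0.31 for Pcdhb19, none of which passed the test. Signal above the limit of 4.77 was scattered along the array too, at Pcdhb4, Pcdhb8, Pcdhb14, Pcdhb16, Pcdhb17, Pcdhb20 and Pcdhb22. Of these, Pcdhb8 (mean 4.85) and Pcdhb16 (4.84) lay below 4.90, the 95th percentile of olfactory receptor genes. Pcdhb genes resemble each other in sequence, and an array cannot tell transcripts apart where they share probe sequence, so single values of this group are uncertain.

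**Figure D2:**
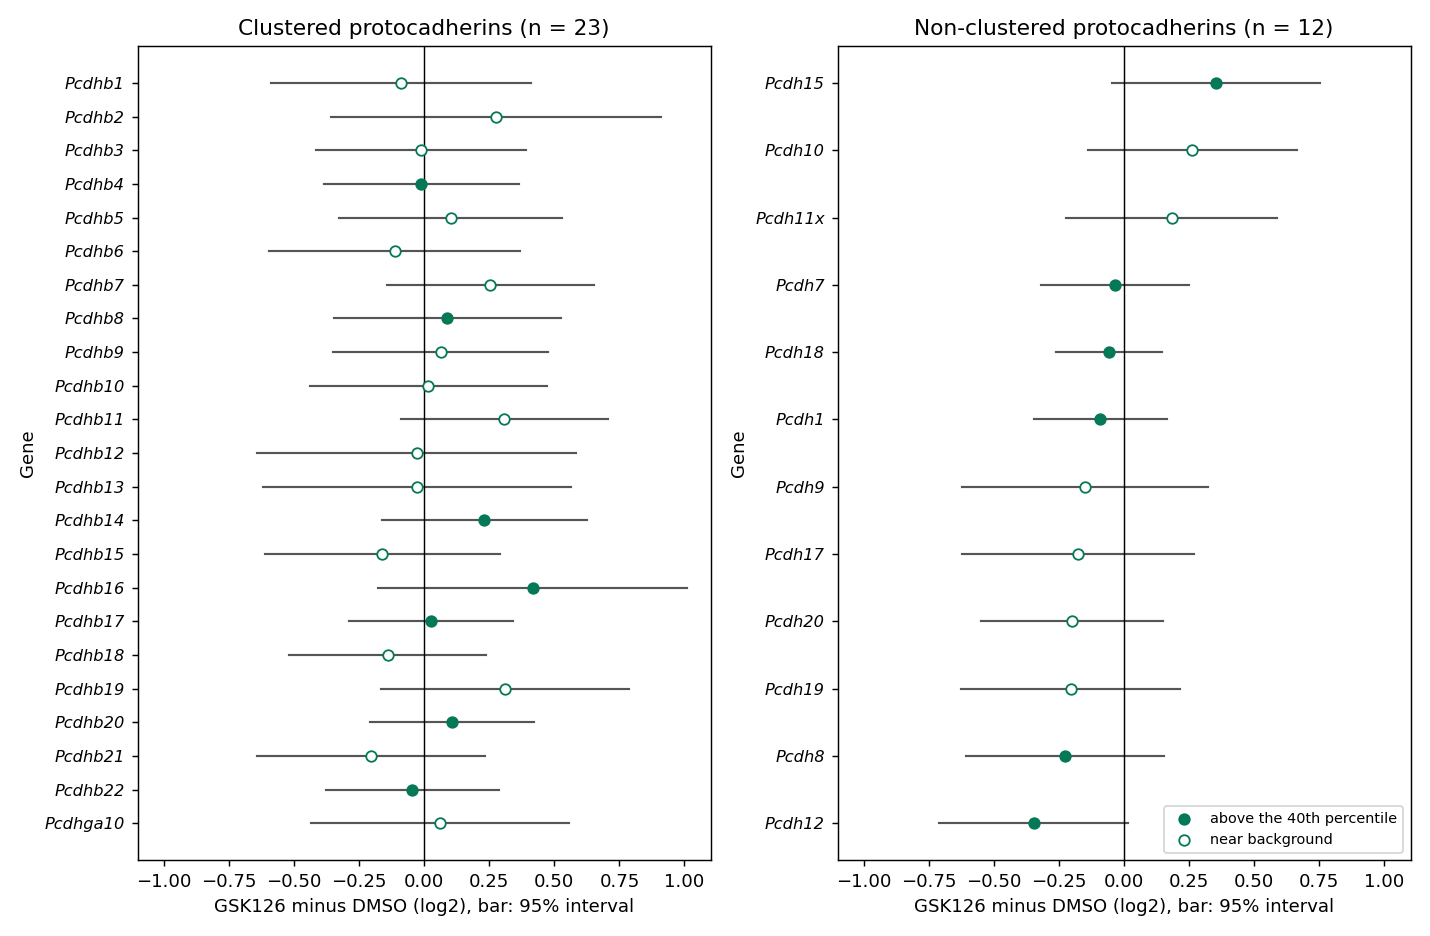
Change (GSK126 minus DMSO, log2, horizontal axis) of each protocadherin gene (vertical axis) with its 95% interval from limma. Filled points are genes at or above the 40th percentile of mean level and open points genes near background, with Pcdhb genes in chromosome order and non-clustered genes ordered by their change. All 35 intervals include 0.

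Few alpha and gamma genes could be read singly. Of the 14 alpha genes in RefSeq, 0 had a probe set of their own, 9 shared one and 5 were not listed in the annotation used here. Of the 21 protein-coding gamma genes, Pcdhga10 had a probe set of its own, 9 shared one and 11 were not listed there. A probe set annotated to 9 alpha genes at once read 5.17 and 5.28 with GSK126, against 5.18 and 5.28 with DMSO (change -0.001, SE 0.14). A probe set annotated to 9 gamma genes read 4.01 and 3.62 with GSK126, against 3.77 and 3.995 with DMSO (change -0.07, SE 0.22). In both, the GSK126 and DMSO values overlapped. These probe sets name no single gene and are not counted among the 35.

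Of the non-clustered genes, Pcdh18, Pcdh1 and Pcdh7 had the smallest SE in the limma fit with an intensity trend. Pcdh18, an adhesion protein of the delta group that in mouse binds the adaptor Dab1, read 8.73 and 8.64 with GSK126, against 8.70 and 8.79 with DMSO. The groups overlapped, and the change of -0.06 had the smallest SE of the family at 0.09 (adjusted p = 0.888, 95% interval 0.835-fold to 1.11-fold). That rank depended on the trend. Without it the SE of Pcdh18 was 0.113, above those of Pcdh7 (0.109) and Pcdh20 (0.112). Pcdh1, a protocadherin of epithelia known in human airways, read 7.26 and 7.05 with GSK126, against 7.23 and 7.25 with DMSO (change -0.09, SE 0.11, adjusted p = 0.840). Its lower mean with GSK126 came from replicate 2, and without that array the sign turned. Pcdh7, which in human cells binds protein phosphatase 1, read 5.73 and 5.69 with GSK126, against 5.76 and 5.72 with DMSO (-0.03, SE 0.12, adjusted p = 0.966).

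Pcdh12, the vascular endothelial protocadherin, had the largest negative change. It read 5.11 and 5.31 with GSK126, against 5.69 and 5.42 with DMSO, so the groups did not overlap. The change of -0.35 (SE 0.16) did not pass (unadjusted p = 0.0591, adjusted p = 0.497 in limma). Centring, which shifted every gene alike, put it at -0.40. The unadjusted p was 0.0332 with centred arrays, 0.0361 after quantile normalization, 0.0496 without GSK126 replicate 2 and 0.0486 without DMSO replicate 2, with adjusted p from 0.328 to 0.621 in these 4 fits. The unadjusted p was 0.0829 with the replicate block, and the change was -0.21 without DMSO replicate 1 (unadjusted p = 0.329) and -0.25 without GSK126 replicate 1 (unadjusted p = 0.219). Of 7 endothelial markers 6 were near background, among them Pecam1 (change 0.29, SE 0.15) and Cdh5 (-0.26, SE 0.22), and their part in this value was not tested.

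Pcdh15, which forms the tip links of inner-ear hair cells with Cdh23, read 5.26 and 5.00 with GSK126, against 4.63 and 4.92 with DMSO. The groups did not overlap (change 0.35, SE 0.17, unadjusted p = 0.0747, adjusted p = 0.523 in limma), and without GSK126 replicate 2 the unadjusted p was 0.0463 and the adjusted p 0.621. The change was 0.21 without DMSO replicate 1 (unadjusted p = 0.366) and 0.23 without GSK126 replicate 1 (unadjusted p = 0.285). Its second probe set read lower, at 3.98 and 3.66 with GSK126 and 3.91 and 3.59 with DMSO, and its change was 0.07 (SE 0.22). Pcdh8, an activity-regulated protocadherin of synapses, read 5.02 and 4.73 with GSK126, against 5.19 and 5.01 with DMSO (-0.23, SE 0.16, adjusted p = 0.682). Its groups overlapped by a narrow margin.

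The near-background non-clustered genes had changes between -0.20 and 0.26. Pcdh10, which acts in axon growth and in human tumours is often silenced, read 4.28 and 4.04 with GSK126, against 3.97 and 3.83 with DMSO (change 0.26, SE 0.17, adjusted p = 0.648). Pcdh20 read 4.51 and 4.46 with GSK126, against 4.73 and 4.63 with DMSO (-0.20, SE 0.15, adjusted p = 0.696). Neither pair of groups overlapped, with Pcdh10 higher and Pcdh20 lower on both GSK126 arrays, although neither passed the test. Pcdh19, the X-linked gene of a human epilepsy, read 3.77 and 3.60 with GSK126, against 4.03 and 3.75 with DMSO (-0.20, SE 0.18), and its groups overlapped. Pcdh11x, also X-linked, read 2.64 and 2.52 with GSK126, against 2.32 and 2.47 with DMSO (0.18, SE 0.17), below the olfactory receptor median. Pcdh17 (-0.18) and Pcdh9 (-0.15) completed the group.

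Set side by side, the clustered genes had a median change of 0.03 (mean 0.06) and the non-clustered ones a median of -0.12 (mean -0.06), against a median of -0.01 over all genes. Means were higher with GSK126 in 13 of 23 clustered and 3 of 12 non-clustered genes, and in 48.0% of all genes. The mean level of the clustered genes was 4.16 and 4.15 with GSK126, against 4.07 and 4.11 with DMSO. That of the non-clustered genes was 5.02 and 4.85 with GSK126, against 5.02 and 4.96 with DMSO. The clustered class was thus slightly higher on both GSK126 arrays, while the non-clustered class was lower on GSK126 replicate 2 only.

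Both class medians shifted with scaling and with single arrays. Their difference, clustered minus non-clustered, moved little with scaling. It was 0.1465 as deposited and with centred arrays, and 0.138 after quantile normalization. Single arrays moved it more, to 0.28 without GSK126 replicate 1 and 0.06 without GSK126 replicate 2. With centred arrays the clustered median was -0.03 with 11 of 23 genes higher, where the median over all genes was -0.06. After quantile normalization the clustered median was 0.01 with 12 higher, where the median over all genes was -0.02. The non-clustered median was -0.17 and -0.13 in these settings, with 3 of 12 genes higher in both. Leaving out GSK126 replicate 2 brought the non-clustered median to 0.0006, and leaving out GSK126 replicate 1 to -0.21. All genes near background had a median change of 0.04 and all others one of -0.03, and olfactory receptor genes one of 0.07. Their median level was 3.13 on GSK126 replicate 2, against 2.90 on GSK126 replicate 1 and 2.89 and 2.90 on the DMSO arrays. The part of this shift in the class values was not tested. Among members above the limit, the median was 0.09 for 7 clustered and -0.07 for 6 non-clustered genes.

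Groups did not overlap in 9 of the 35 genes, against 40.1% of all genes. Of these, 6 were higher with GSK126 (Pcdhb7, Pcdhb11, Pcdhb14, Pcdh10, Pcdh11x and Pcdh15) and 3 lower (Pcdhb18, Pcdh12 and Pcdh20), against 18.2% and 21.8% of all genes. The margin was very narrow for Pcdhb18. The clustered class gave 4 of 23 and the non-clustered class 5 of 12. Among the 22 near-background members 4 were higher and 2 lower, against 1830 and 1067 of all 8872 near-background genes. Among the 13 other members 2 were higher and 1 lower, against 2214 and 3779 of all 13308 other genes. With centred arrays, 2 non-clustered genes were higher and 7 lower without overlap. In that setting 2819 of all 22180 genes were higher and 7015 lower, and 44.3% did not overlap. In 28 of the 35 genes the gap between replicates within at least 1 group was larger than the change between groups. This count was not made over all genes, so it does not set the family apart from them.

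**Figure D3:**
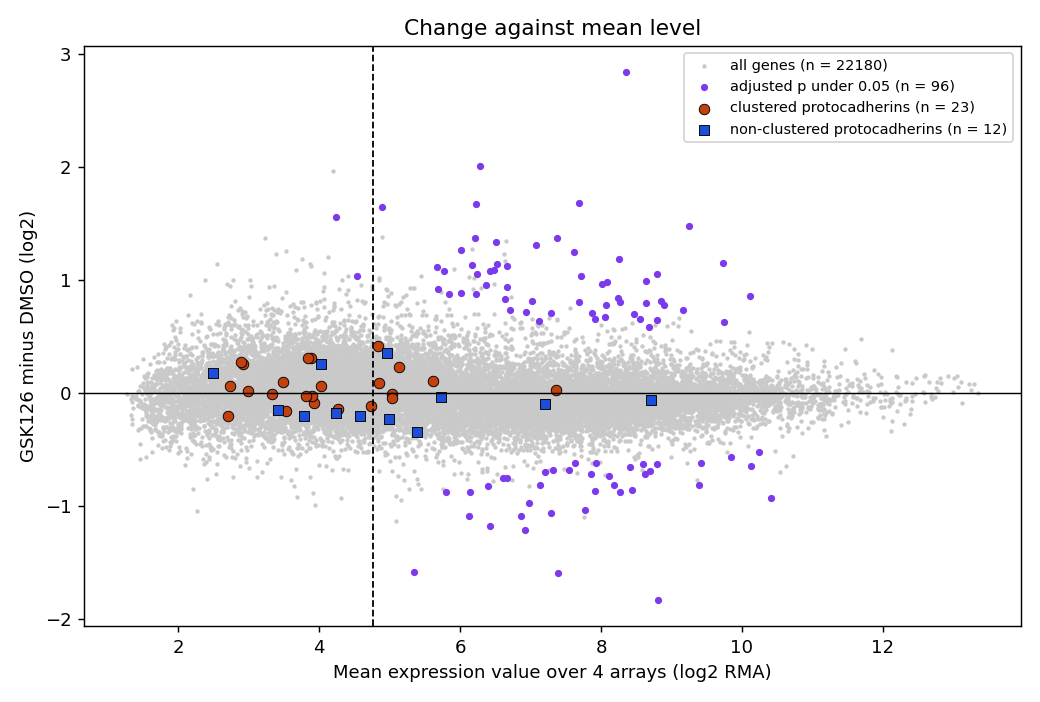
Change (GSK126 minus DMSO, log2, vertical axis) against the mean log2 level over the 4 arrays (horizontal axis) for all 22180 genes (grey), the 96 genes with an adjusted p under 0.05 (purple), clustered protocadherins (orange circles) and non-clustered ones (blue squares). The dashed line is the 40th percentile of level at 4.77. The protocadherins lie between -0.35 and 0.42, inside the grey cloud, and none is purple.

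Genes that act on protocadherins did not pass the test either. The counts below stand against 0.433% of all genes past the adjusted threshold and 10.6% at an unadjusted p under 0.05. Of 26 genes listed for promoter choice and chromatin at the clusters, 23 were measured and 0 passed in limma, and 1 was lower at an unadjusted p under 0.05. Means were lower with GSK126 in 20 of the 23, all of which were above the near-background limit, where 58.8% of all genes were lower with a median change of -0.03, and the list's median change was -0.13. The list's mean level was 8.43 and 8.33 with GSK126, against 8.42 and 8.56 with DMSO, so GSK126 replicate 1 was not below DMSO replicate 1. The smallest p were those of Stag1, a cohesin subunit (change -0.26, SE 0.10, adjusted p = 0.433), and Pds5a, a cohesin regulator (-0.20, SE 0.09, adjusted p = 0.479). Ctcf, which binds the promoters of clustered genes, read 8.83 and 8.70 with GSK126, against 8.79 and 9.11 with DMSO, and overlapped between groups (-0.18, SE 0.12). Ezh2, the drug's target, was at -0.19 (SE 0.09, adjusted p = 0.499).

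Of 21 listed partners and signalling genes, 18 were measured and 0 passed in limma, and 2 were lower at an unadjusted p under 0.05. These were Marcks, an actin-linked kinase substrate (change -0.36, SE 0.13, adjusted p = 0.386), and Taok2, a kinase that acts with Pcdh8 (-0.24, SE 0.09, adjusted p = 0.414). All 24 genes of a list of classical and related cadherins and catenins were measured. None passed in limma, and 1 was higher at an unadjusted p under 0.05. That gene was Cdh2, the N-cadherin gene, which read 9.08 and 9.14 with GSK126, against 8.81 and 8.64 with DMSO (0.39, SE 0.09, adjusted p = 0.210). Its GSK126 values lay above both DMSO values. Cdh19 had the next smallest p (0.39, SE 0.17, adjusted p = 0.484). Of 24 other cadherin superfamily genes, 0 passed in limma and 0 had an unadjusted p under 0.05, and the smallest p were those of Clstn1 (-0.21, SE 0.11) and Celsr2 (-0.29, SE 0.17).

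Over all genes 96 passed, 58 higher and 38 lower with GSK126. The arrays correlated at 0.981 to 0.988 over all probe sets, and the 2 GSK126 arrays correlated at 0.981 with each other, at the lower end of that range. GSK126 replicate 1 correlated more closely with the DMSO arrays, at 0.987 and 0.986. Every pair with GSK126 replicate 2 lay between 0.981 and 0.983, so the arrays did not group by treatment. Of 9 mammary epithelial markers measured 8 were above the limit, and means were higher with GSK126 in 3 and lower in 6. The 2 of smallest p were Krt14 (-0.51, SE 0.18) and Elf5 (-0.38, SE 0.14). Krt7, Krt8 and Krt18 changed by 0.06, 0.01 and 0.01. Of markers of other cells, 4 of 10 neuronal, 5 of 8 fibroblast, 1 of 7 endothelial and 3 of 8 immune genes were above it. The smallest p were those of Tubb3 (-0.39, near background) and Map2 (0.25) among neuronal and of Pdgfra (0.45, near background) and Thy1 (0.35) among fibroblast markers. Means were higher in 6 and lower in 4 neuronal markers, and higher in 6 and lower in 2 fibroblast markers. Of all these markers, Cd68 alone passed (1.00, adjusted p = 0.010).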

How the data were processed

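The authors deposited log2 expression values. Per the labels, Expression Console made them by robust multi-array averaging with a core-exon setting. Affymetrix Power Tools is listed in the submitters' processing notes. The centring and the genome build are not given in the sources used here. Of 41345 probe sets, 23521 carried 1 symbol, 1814 several and 16010 none, and only those with 1 name a gene here. Symbols were the same in RefSeq (GRCm38.p6) for all 23328 probe sets matched by Entrez identifier. The probe set with the highest mean represented each gene, which mattered for 1 protocadherin, Pcdh15.

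Differences were fitted with limma 3.58.1 in R 4.3.3 over all 22180 genes, with an intensity trend and two-sided moderated tests. P-values were adjusted by Benjamini-Hochberg, with a threshold of 0.05. There were 2 residual and 5.57 prior degrees of freedom, and intervals cover 95%. The procedure was tested on simulated data. For arrays, their number limits the precision, and with 2 against 2 an exact two-sided permutation p cannot go below 0.333. The members and lists were chosen with earlier results of these data known. Class values are descriptions with no test. Genes were named by rule: in each class the 4 largest changes each way and the 5 highest levels, in each list or marker group those past the threshold or the 2 of smallest p, and Ezh2. Pcdhga10, Pcdhb1, Pcdhb7, Pcdhb8, Pcdh9, Pcdh17, Ctcf and the probe sets with several symbols were added after their values were seen. Same-numbered arrays did not deviate together (correlation -0.03 over genes), so replicate numbers were not treated as pairs. Alternatives were the prior variance, a filter on low genes, the probe set rule, centring, quantile normalization, the replicate block, leaving out each array and other background limits. Scan dates were not used here.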

Additional observations from a re-analysis of the deposited data

How the results depend on the processing

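All alternatives left the count of protocadherins past the adjusted threshold at 0 in limma. At an unadjusted p under 0.05 there were 0 protocadherins in the values as reported, 1 with centred arrays (Pcdh12), 1 after quantile normalization (Pcdh12), 1 with the replicate block (Pcdhb16), and 1 to 2 when 1 array was left out. The median change of non-clustered genes ran from -0.211 to 0.0006 when 1 array was left out, and that of clustered genes from 0.02 to 0.07. Over all genes, the calls numbered 96 as reported, 149 without genes below the 40th percentile, 10 with the replicate block, 0 without the intensity trend (limma, 1964 at an unadjusted p under 0.05), and 0 to 4 when 1 array was left out. Their split was 58 higher and 38 lower as reported and 55 higher and 62 lower with centred arrays. The causes were not tested. Protocadherins above the near-background limit numbered 13 as reported, 15 with the limit at the 30th percentile, 6 at the 50th and 11 at the 95th percentile of olfactory receptor genes.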

Other observations

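A probe set annotated jointly to Pcdhga10 and Gm19774 read 11.73 and 11.70 with GSK126, against 11.89 and 11.58 with DMSO, a change of -0.03 (SE 0.12). The probe set of Pcdhga10 alone read between 3.75 and 4.24 on the 4 arrays. Which transcripts the joint probe set reads was not tested, and it was chosen after its values were seen. A probe set annotated jointly to Pcdh10 and 1700027H10Rik read 2.88 and 3.37 with GSK126, against 3.16 and 3.25 with DMSO (change -0.08, SE 0.23), and that of Pcdh10 alone was near background too.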
